A study of Mus musculus with 2 samples.

Results

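The glutathione, thioredoxin and NRF2 antioxidant genes examined here are 35 genes, chosen by symbol from a fixed list, of the 30538 genes in the deposited count table. All 35 were found, and each symbol was the same in the GENCODE M21 annotation of GRCm38. The study sequenced RNA from mouse spleen cells sorted as CD11b-positive, Ly6G-negative and Ly6C-low, which the labels call resident splenic macrophages. There were 2 libraries, 1 from Ch25h-/- mice, which lack cholesterol 25-hydroxylase, and 1 from C57BL/6 mice. Both groups were infected intravenously with 100000 Listeria monocytogenes and sampled on day 3, with about 100000 cells per sort, and no uninfected library was analysed here. The labels give no age or sex and do not say how many mice went into a library.

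The Ch25h-/- library held 15986392 gene counts and the C57BL/6 library 16957371. Ch25h itself had 0 counts in the Ch25h-/- library and 3 counts in the C57BL/6 library, both at or under the floor of 3 counts used for undetected genes, so it does not check the labels. Levels below are CPM, read counts scaled to library size and composition with TMM factors, and genes averaging 1 CPM or more across the libraries are called measured. Levels of different genes are compared only as CPM per kilobase of annotated exon. Each ratio is Ch25h-/- over C57BL/6, with an exact 95% interval that covers counting error only, since each genotype has 1 library and neither a replicate check nor a p-value can be had. A gene was called higher or lower past 2-fold, or past 1.5-fold, when its ratio reached that size and its interval lay wholly on 1 side of no difference.

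Markers of several cell types were present in the sort, and many stood apart between the libraries. On the per-length scale, the 14 natural killer and cytotoxic lymphocyte markers summed to 15139 CPM per kilobase in the Ch25h-/- library and 9551 in the C57BL/6 library, while the 8 general macrophage markers summed to 423 in the Ch25h-/- library and 434 in the C57BL/6 library. Of these 8, 7 had ratios below 1 (median log2 ratio -0.31), and Lyz2, the most abundant, had 256 CPM per kilobase in the Ch25h-/- library and 169 in the C57BL/6 library. All 14 of these cytotoxic markers and all 15 cell cycle markers had ratios above 1, as did 12 of 13 neutrophil markers. The ratio was below 1 for 9 of 10 measured conventional dendritic cell markers, 9 of 10 red pulp macrophage markers and all 10 B cell markers. Past 2-fold, the markers higher in the Ch25h-/- library were Ncr1, Klrd1, Klre1 and Xcl1 of cytotoxic lymphocytes, Ly6g, Ngp, Camp, Ltf and Mmp9 of neutrophils, Ccr2 and Vcan of Ly6C-high monocytes, and Top2a, Ccna2, Rrm2 and Ccne2 of the cell cycle. Those lower were Cd14, Spic, Cd163, C1qa, Marco, Siglec1 and Stab2 of macrophages and sinus lining, Fcgr4 of Ly6C-low monocytes, Epx and Prg2 of eosinophils, Ebf1 and Fcrla of B cells, Sdc1, Mzb1, Derl3 and Jchain of plasma cells, and Flt3, Zbtb46, Batf3, Irf4, Ccr7, Fscn1, Ccl22 and Esam of dendritic cells. Some of these lists were mixed. Of 11 Ly6C-low monocyte markers, 8 had ratios below 1 and 3 above, and Cx3cr1 was called higher past 1.5-fold. Of 10 eosinophil, basophil and mast cell markers, 6 were below and 4 above. Of 7 measured endothelial and stromal markers, the list that holds Stab2, 3 were below and 4 above. Of 7 Ly6C-high monocyte markers, 6 were above, and Fn1 was below (log2 ratio -0.59). The marginal zone marker Cd209b, the plasmacytoid marker Siglech and the erythroid markers Alas2 and Slc4a1 had 0 counts in both libraries. The part of cell composition in the ratios below was not tested, and in bulk RNA fewer cells of a type and less RNA per cell cannot be told apart.

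As background, the transcription factor NRF2, encoded by Nfe2l2, is held low by KEAP1, which presents it for degradation. When reactive oxygen or electrophiles modify KEAP1, NRF2 accumulates, pairs with small MAF proteins and binds antioxidant response elements in genes of glutathione synthesis and thiol repair. Glutathione and thioredoxin then supply electrons to the peroxidases, peroxiredoxins and glutaredoxins that remove hydrogen peroxide and repair oxidised thiols. The reductases return glutathione and thioredoxin to their reduced form. In phagocytes these systems protect the cell from the oxidants it makes against ingested bacteria.

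The core of the antioxidant response element, TGACNNNGC on either strand, was looked for in RefSeq promoter windows of GRCm38.p6 that run from 250 bases before to 50 bases after each annotated start. Windows were found for 31 of the 35 genes (none for Prdx6, Gsr, Gclc and Gstt2). The core was present for 6 of these 31 genes, or 19.4%, against 14% of 27025 genes in the whole table. By window, it was present in 6 of the 42 windows of these genes, against 4071 of all 32851 windows, or 12.4%. The 6 stretches are shown because their letters match the core of the element that NRF2 binds. The core is in capitals and each sequence is read along the strand of its gene.
Gclm (chr3:122245413-122245441, plus strand): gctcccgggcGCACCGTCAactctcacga
Nfe2l2 (chr2:75704885-75704913, minus strand): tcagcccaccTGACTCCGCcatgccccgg
Prdx1 (chr4:116685456-116685484, plus strand): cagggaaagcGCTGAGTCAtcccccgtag
Sod1 (chr16:90220696-90220724, plus strand): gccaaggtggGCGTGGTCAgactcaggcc
Srxn1 (chr2:152105542-152105570, plus strand): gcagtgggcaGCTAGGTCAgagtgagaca
Txnrd1 (chr10:82859104-82859132, plus strand): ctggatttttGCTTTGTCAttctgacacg
The core began 134 bases before the start for Gclm, 133 for Prdx1, 240 for Nfe2l2, 92 for Txnrd1 and 56 for Sod1, and 28 bases after it for Srxn1. A match is a description of these letters and not a shown binding site.

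Most of these genes had similar levels in the libraries. Of the 34 measured genes, 1 was called higher and 1 lower past 2-fold, or 5.88%, beside 7.84% of all 11972 measured genes. Past 1.5-fold, 1 was higher and 3 were lower, or 11.8%, beside 18.6% of all measured genes (7.35% higher and 11.2% lower). The median log2 ratio of the 34 genes was -0.02, beside 0.02 for all measured genes. A log2 ratio under 0.5 in size was seen for 28 of the 34 genes (82.4%) and for 75.8% of all measured genes. Among genes averaging 5 CPM or more, the same share was 81.8% of 33 genes and 81.2% of 10077 genes. At that filter 6.06% of the 33 were past 2-fold, beside 4.63% of the 10077. Past 1.5-fold the shares were 12.1% and 15%. By these shares the list lay near the background. The counting interval lay above no difference for 8 genes, below it for 11 and across it for 15, beside 3706 above, 3294 below and 4972 across among all 11972 measured genes.

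**Figure D1:**
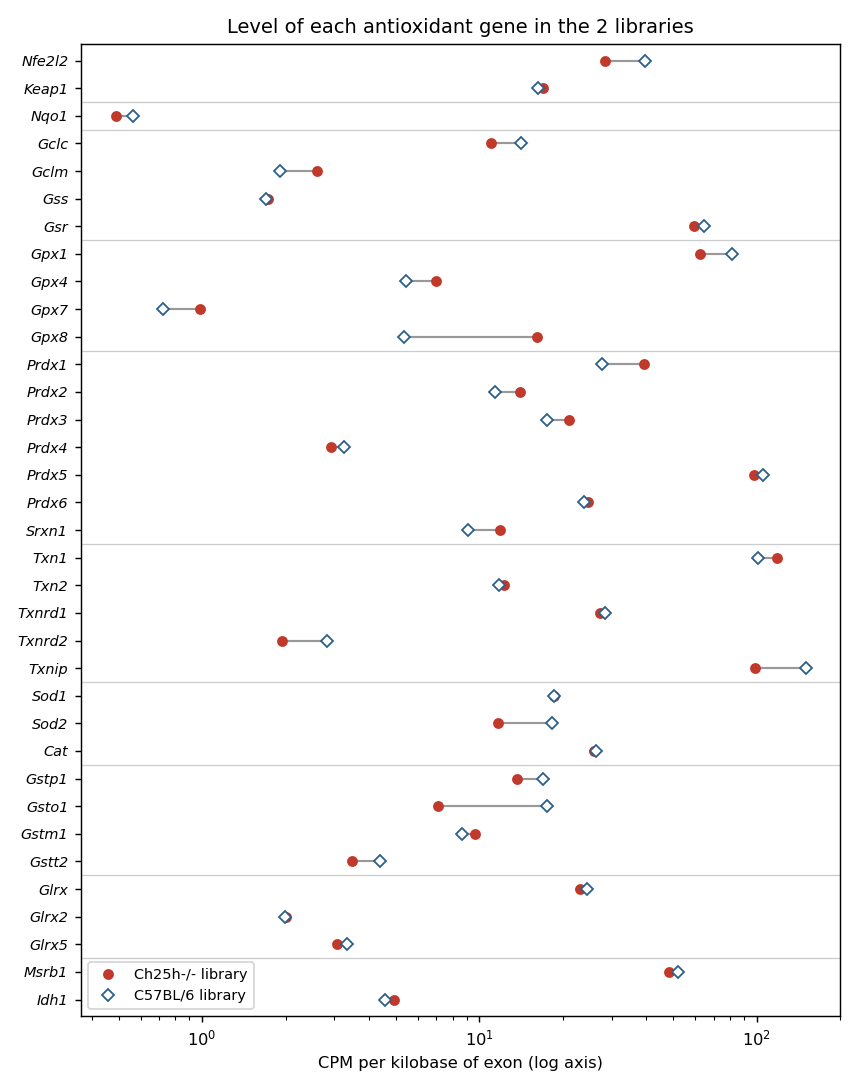
Level of each of the 35 genes as CPM per kilobase of exon on a log axis, with filled circles for the Ch25h-/- library and open diamonds for the C57BL/6 library, grouped by role from top to bottom. The widest gaps are those of Gpx8 (16.1 in the Ch25h-/- library, 5.35 in the C57BL/6 library) and Gsto1 (7.11 in the Ch25h-/- library, 17.6 in the C57BL/6 library).

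**Figure D2:**
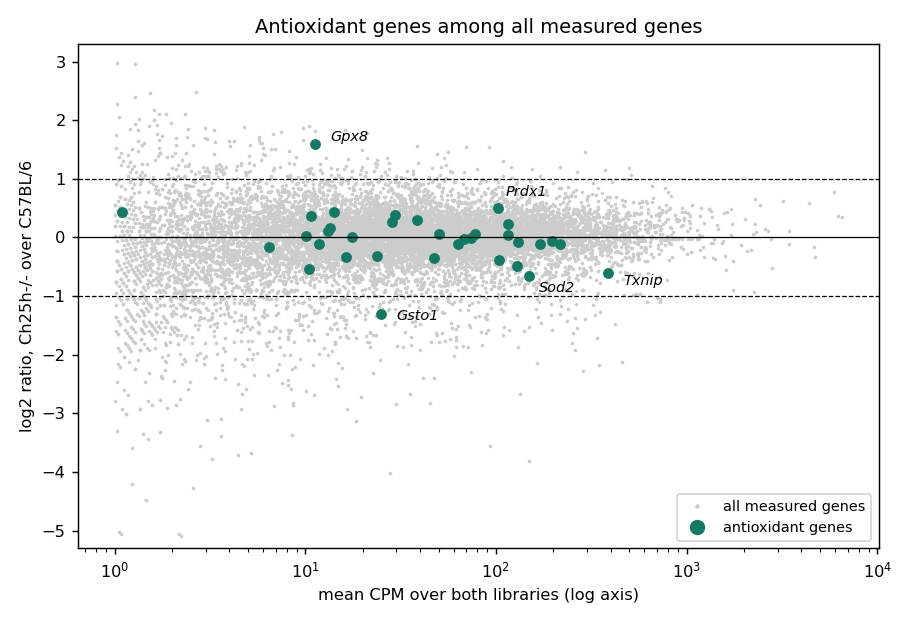
Each point is a measured gene, placed by its mean CPM over both libraries on a log axis and by its log2 ratio of Ch25h-/- over C57BL/6, with the 34 measured antioxidant genes in green over all 11972 measured genes in grey and dashed lines at 2-fold. Only Gpx8 and Gsto1 among the green points lie beyond the dashed lines.

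In the NRF2 axis itself, the Nfe2l2 transcript had a ratio below 1, short of a call, and the Keap1 transcript was level. Only RNA was measured, so the level of NRF2 protein is not known. Nfe2l2 (chromosome 2, 75675513 to 75704641) had 1704 counts in the Ch25h-/- library, or 108 CPM, against 2570 counts and 150.2 CPM in the C57BL/6 library. Its log2 ratio of -0.48 (interval -0.57 to -0.39) did not reach 1.5-fold. Keap1, the adaptor that hands NRF2 to the CUL3 ubiquitin ligase, had 79.8 CPM in the Ch25h-/- library and 76.3 CPM in the C57BL/6 library, a log2 ratio of 0.06 whose interval spans 0. Within a library, Nfe2l2 had 1.35 counts per count of Keap1 in the Ch25h-/- library and 1.97 in the C57BL/6 library, a log2 difference of -0.55 (interval -0.69 to -0.40) that does not depend on scaling. Nqo1, the quinone reductase often used to read NRF2 activity, had 12 counts in the Ch25h-/- library and 15 in the C57BL/6 library. With a mean under 1 CPM it was not measured, and its log2 interval of -1.44 to 0.98 is wide on both sides of 0.

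The genes whose promoters hold the antioxidant response element core did not share a direction. Prdx1, Gclm and Srxn1 had log2 ratios of 0.50, 0.44 and 0.39, while Nfe2l2 stood at -0.48, Txnrd1 at -0.06 and Sod1 at -0.01. Their median was 0.19, against -0.01 for the 24 measured genes with a window and no core. All 6 lay between -0.48 and 0.50, and the 4 genes past 1.5-fold in either direction were all without the core in the window searched.

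Glutathione synthesis showed opposite ratios for the subunits of its first enzyme. Gclc, the catalytic subunit of glutamate-cysteine ligase, had 659 counts (41.6 CPM) in the Ch25h-/- library and 909 counts (53.1 CPM) in the C57BL/6 library, a log2 ratio of -0.35 (interval -0.50 to -0.21). Gclm, the modifier subunit that eases feedback inhibition of the enzyme by glutathione, had 259 counts (16.3 CPM) in the Ch25h-/- library and 206 counts (12.04 CPM) in the C57BL/6 library, a log2 ratio of 0.44 (0.17 to 0.71). Neither reached 1.5-fold alone. Counts of Gclc per count of Gclm were 2.54 in the Ch25h-/- library and 4.41 in the C57BL/6 library, a log2 difference of -0.79 (interval -1.10 to -0.49). Gss, which adds glycine in the second step, stood at 10.2 CPM in the Ch25h-/- library and 10.1 CPM in the C57BL/6 library. Gsr, the reductase that regenerates glutathione and the most abundant gene of the group per length, had 59.5 CPM per kilobase in the Ch25h-/- library and 64.6 in the C57BL/6 library (log2 ratio -0.12, interval -0.20 to -0.04). Exons of Gss overlap Acss2 on the opposite strand, and the strand setting of the counting is not given in the sources used here.

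**Figure D3:**
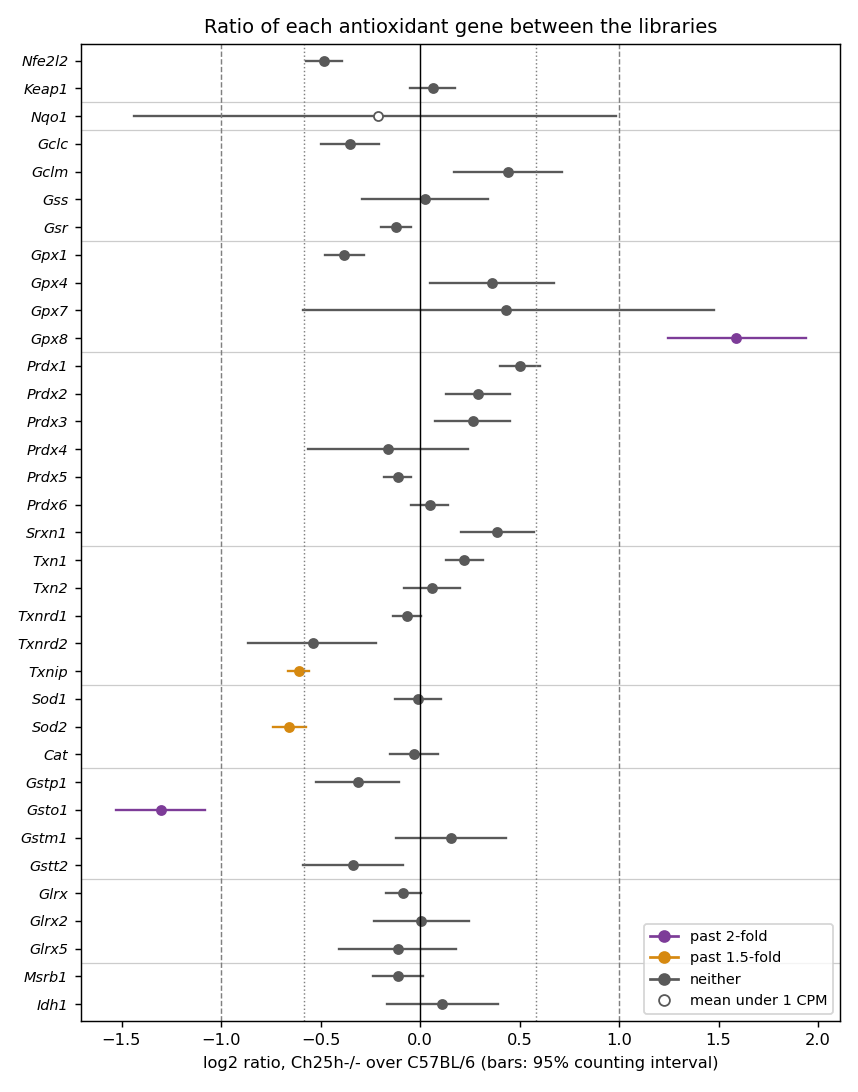
Log2 ratio of Ch25h-/- over C57BL/6 for each of the 35 genes, with bars for the exact 95% counting interval, a solid line at 0, dotted lines at 1.5-fold and dashed lines at 2-fold. Gpx8 at 1.59 and Gsto1 at -1.30 are past 2-fold, Sod2 at -0.66 and Txnip at -0.61 are past 1.5-fold, and the open circle marks Nqo1, which was under 1 CPM.

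The glutathione peroxidase family held the highest ratio of the list. Gpx8, a peroxidase of the endoplasmic reticulum with cysteine in place of selenocysteine (chromosome 13, 113042753 to 113046410), had 267 counts in the Ch25h-/- library and 96 counts in the C57BL/6 library. These are 16.9 CPM in the Ch25h-/- library and 5.61 CPM in the C57BL/6 library, a ratio of 3.00 (log2 1.59, interval 1.25 to 1.94). It was called higher past 2-fold, as were 2.07% of all measured genes. Several marker lists were also higher. The 13 neutrophil markers summed to 2301 CPM per kilobase in the Ch25h-/- library and 1388 in the C57BL/6 library. The 15 cell cycle markers summed to 468 in the Ch25h-/- library and 267 in the C57BL/6 library. The 14 cytotoxic lymphocyte markers summed to 15139 in the Ch25h-/- library and 9551 in the C57BL/6 library. The 7 Ly6C-high monocyte markers summed to 828 in the Ch25h-/- library and 549 in the C57BL/6 library. The part of any of these lists in the Gpx8 ratio was not tested. Gpx7, the paralogue of Gpx8 in the same compartment, had 20 counts in the Ch25h-/- library and 16 in the C57BL/6 library. Its log2 interval of -0.59 to 1.48 spans 0. Gpx1, the abundant cytosolic selenoenzyme, had 1423 counts (89.8 CPM) in the Ch25h-/- library and 2000 counts (116.9 CPM) in the C57BL/6 library, a log2 ratio of -0.38 (-0.48 to -0.28). Gpx4, which reduces lipid hydroperoxides in membranes, had 190 counts (11.99 CPM) in the Ch25h-/- library and 160 counts (9.35 CPM) in the C57BL/6 library, a log2 ratio of 0.36 (0.05 to 0.67). Of the 50-base words in Gpx4 transcripts, 34.7% also occur in another annotated gene, mainly the pseudogene Gpx4-ps2, so its level is uncertain if reads that match several places were dropped. No 50-base word of Gpx8, Gpx7 or Gpx1 is shared in this way.

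Gpx8 and Gsto1 each lie inside a larger gene on the opposite strand, without overlap of annotated exons. Cdc20b, around Gpx8, had 29.3 CPM in the Ch25h-/- library and 20.2 CPM in the C57BL/6 library (log2 ratio 0.53). Gzma, a granzyme gene 47415 bases from Gpx8, stood at 0.58, and Dhx29, 73321 bases from it, at 0.09 with an interval across 0. Cfap43, around Gsto1, had 78.9 CPM in the Ch25h-/- library and 129.9 CPM in the C57BL/6 library (log2 ratio -0.72). Both host genes had ratios on the same side as the gene within, and smaller in size. The 200 bases before the RefSeq start are shown for both, since they are the genes past 2-fold, and neither holds the antioxidant response element core.
Gpx8 (chr13:113046389-113046588, minus strand): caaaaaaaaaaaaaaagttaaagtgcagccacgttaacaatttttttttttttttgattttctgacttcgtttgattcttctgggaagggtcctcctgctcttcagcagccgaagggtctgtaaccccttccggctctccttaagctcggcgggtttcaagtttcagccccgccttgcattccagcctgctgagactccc
Gsto1 (chr19:47854773-47854972, plus strand): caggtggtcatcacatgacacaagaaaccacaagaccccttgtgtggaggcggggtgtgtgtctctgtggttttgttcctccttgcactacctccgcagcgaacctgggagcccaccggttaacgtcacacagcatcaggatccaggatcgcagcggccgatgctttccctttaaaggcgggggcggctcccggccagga
The Gpx8 stretch is 46.0% G or C and the Gsto1 stretch 59.5%.

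Of the 7 peroxiredoxin genes, sulfiredoxin included, 5 had log2 ratios above 0 under every scaling tried, 4 of them with intervals above 0, and none was past 1.5-fold. Among all 11972 measured genes, 6203 had log2 ratios above 0. Prdx1, a cytosolic peroxiredoxin, had 1894 counts (119.6 CPM) in the Ch25h-/- library and 1444 counts (84.4 CPM) in the C57BL/6 library, a log2 ratio of 0.50 (interval 0.40 to 0.60). Prdx2 at 0.29 and mitochondrial Prdx3 at 0.27 also had intervals above 0. Srxn1, which restores overoxidised peroxiredoxins, had 33.5 CPM in the Ch25h-/- library and 25.6 CPM in the C57BL/6 library (0.39, interval 0.20 to 0.57). Counts of Prdx1 per count of Srxn1 were 3.57 in the Ch25h-/- library and 3.297 in the C57BL/6 library, a log2 difference of 0.11 whose interval of -0.10 to 0.32 spans 0. Prdx5, the most abundant of the group per length, had 97.5 CPM per kilobase in the Ch25h-/- library and 105 in the C57BL/6 library (log2 ratio -0.11, interval -0.18 to -0.05). Prdx6, which uses glutathione as its reductant, stood at 0.05 and Prdx4 of the endoplasmic reticulum at -0.16, both with intervals across 0. Prdx2 shares exon bases with Junb and Rnaseh2a, and Prdx5 with Trmt112, on the opposite strand. Of Prdx1 words, 8.81% occur in other annotated genes.

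In the thioredoxin system the binding partner Txnip was lower while thioredoxin was not. Txnip, an arrestin-type protein that binds and blocks thioredoxin and limits glucose uptake (chromosome 3, 96557957 to 96561883), had 4874 counts in the Ch25h-/- library and 8035 counts in the C57BL/6 library. These are 308 CPM in the Ch25h-/- library and 470 CPM in the C57BL/6 library, 1.53-fold lower (log2 ratio -0.61, interval -0.66 to -0.56). It was called lower past 1.5-fold, as were 11.2% of all measured genes, and its interval reaches inside 1.5-fold. Txn1, cytosolic thioredoxin, had 1965 counts (124 CPM) in the Ch25h-/- library and 1820 counts (106 CPM) in the C57BL/6 library, a log2 ratio of 0.22 (0.13 to 0.31). Counts of Txnip per count of Txn1 were 2.48 in the Ch25h-/- library and 4.42 in the C57BL/6 library, a log2 difference of -0.83 (interval -0.94 to -0.73). On the per-length scale Txnip was below Txn1 in the Ch25h-/- library, at 98.5 against 118 CPM per kilobase, and above it in the C57BL/6 library, at 150.4 against 101. Exons of Txnip overlap the antisense gene Gm15441.

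Txnip is known for carbohydrate response elements, paired boxes bound by the glucose-sensing factors MondoA and ChREBP. The box CACGNG, repeated after 5 free bases and searched on either strand, was present in its promoter window and in 0.0487% of the 32851 windows, in 15 of 27025 genes. The pattern was searched because Txnip is known for such boxes, so its presence there is a description and not a test, however rare the pattern is. The pair began 85 bases before the start. It is shown, in capitals, because Txnip is the most abundant of these genes per length in the C57BL/6 library.
Txnip (chr3:96557866-96557894, plus strand): actgtgCACGAGGGCTGCACGAGcctcca
Arrdc4, a related arrestin gene also known as a MondoA target, was called lower past 1.5-fold, as were 11.2% of all measured genes. It had 19.5 CPM in the Ch25h-/- library and 31.9 CPM in the C57BL/6 library (log2 ratio -0.71, interval -0.91 to -0.50). Arrdc4 was not among the 15 genes with the pattern, which does not show that it lacks such boxes. Any part of MondoA or ChREBP in these ratios was not tested.

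Txnrd1, the cytosolic selenoenzyme that reduces thioredoxin, had 193 CPM in the Ch25h-/- library and 202 CPM in the C57BL/6 library, with an interval across 0. Txnrd2, its mitochondrial counterpart, had 135 counts (8.52 CPM) in the Ch25h-/- library and 212 counts (12.4 CPM) in the C57BL/6 library, a log2 ratio of -0.54 (-0.86 to -0.22), just short of 1.5-fold. Txn2, mitochondrial thioredoxin, stood at 51.5 CPM in the Ch25h-/- library and 49.4 CPM in the C57BL/6 library. Counts of Gsr per count of Txnrd1, which set the glutathione and thioredoxin reductases side by side, were 0.849 in the Ch25h-/- library and 0.882 in the C57BL/6 library, with a log2 interval of -0.16 to 0.05.

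**Figure D4:**
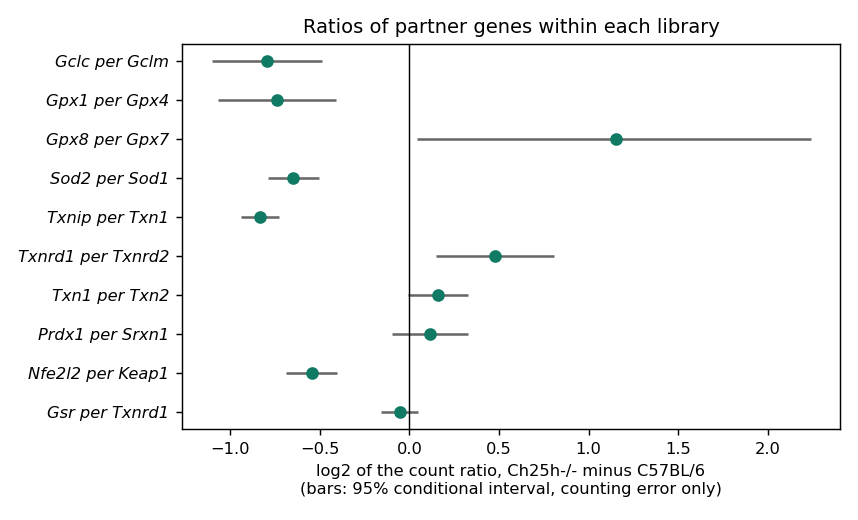
Log2 of the count ratio of 10 pairs of partner genes, Ch25h-/- minus C57BL/6, with bars for the exact conditional 95% interval, which covers counting error only; these values do not depend on library scaling. Txnip per Txn1 at -0.83, Gclc per Gclm at -0.79, Gpx1 per Gpx4 at -0.74, Sod2 per Sod1 at -0.65 and Nfe2l2 per Keap1 at -0.55 lie left of 0, and Gpx8 per Gpx7 at 1.15 and Txnrd1 per Txnrd2 at 0.48 lie right of it.

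Of the enzymes that dispose of superoxide and hydrogen peroxide directly, the mitochondrial superoxide dismutase was lower. Sod2, the manganese enzyme and a known NF-kB target (chromosome 17, 13006846 to 13040063), had 1843 counts (116 CPM) in the Ch25h-/- library and 3138 counts (183 CPM) in the C57BL/6 library. It was 1.58-fold lower (log2 ratio -0.66, interval -0.74 to -0.57). It was called lower past 1.5-fold, as were 11.2% of all measured genes, and its interval also reaches inside 1.5-fold. Sod1, the cytosolic copper-zinc enzyme, had 73.5 CPM in the Ch25h-/- library and 74.0 CPM in the C57BL/6 library, and its ratio of -0.01 turns positive with upper quartile scaling. Cat, peroxisomal catalase and the most abundant of these per length, had 67.4 CPM in the Ch25h-/- library and 69.0 CPM in the C57BL/6 library. Counts of Sod2 per count of Sod1 were 1.58 in the Ch25h-/- library and 2.48 in the C57BL/6 library, a log2 difference of -0.65 (interval -0.79 to -0.50). Of Sod2 words, 21.0% also occur in other annotated genes.

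The glutathione transferases held the lowest ratio. Gsto1, an omega-class enzyme that removes glutathione from protein thiols and reduces dehydroascorbate (chromosome 19, 47854970 to 47864790), had 228 counts in the Ch25h-/- library and 608 counts in the C57BL/6 library. These are 14.4 CPM in the Ch25h-/- library and 35.5 CPM in the C57BL/6 library, 2.47-fold lower (log2 ratio -1.30, interval -1.53 to -1.08). It was called lower past 2-fold, as were 5.77% of all measured genes. Among the marker lists that were also lower, the 10 measured dendritic cell markers summed to 227 CPM per kilobase in the Ch25h-/- library and 663 in the C57BL/6 library, and the 10 red pulp macrophage markers to 105 in the Ch25h-/- library and 170.0 in the C57BL/6 library, and their part in the result was not tested. Its paralogue Gsto2 had 1 count in the Ch25h-/- library and 5 in the C57BL/6 library. Gsto1 lies 13.4 megabases from Ch25h on chromosome 19, where Prdx3, Prdx5 and Gstp1 also lie, between 26.4 and 30.4 megabases from it.

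Per length, Gsto1 was the most abundant of the 4 in the C57BL/6 library, at 17.6 CPM per kilobase, and Gstp1, the pi-class enzyme, in the Ch25h-/- library, at 13.6. Gstp1 had 334 counts (21.1 CPM) in the Ch25h-/- library and 448 counts (26.2 CPM) in the C57BL/6 library, a log2 ratio of -0.31 (-0.52 to -0.10). Gstt2 of the theta class stood at -0.34 (-0.59 to -0.09), and Gstm1 of the mu class at 0.16 with an interval across 0. Other annotated genes share 33.7% of Gstp1 words and 18.9% of Gstm1 words, so their single values are less sure.

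Glutaredoxins, which reverse protein glutathionylation, and the remaining repair genes were level. Glrx, the cytosolic enzyme, had 2002 counts (126 CPM) in the Ch25h-/- library and 2291 counts (133.9 CPM) in the C57BL/6 library, a log2 ratio of -0.08. Mitochondrial Glrx2 stood at 0.01, and Glrx5, which serves iron-sulfur cluster assembly, at -0.11. Msrb1, a selenoprotein that repairs oxidised methionine, had 48.1 CPM per kilobase in the Ch25h-/- library and 51.9 in the C57BL/6 library. Idh1, a cytosolic source of NADPH, had 216 counts in each library. All 5 intervals span 0.

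Grouped by compartment, no set moved as a whole. Of the 6 genes of mitochondria, 3 had ratios above 1 and 3 below, from Prdx3 at 0.27 to Sod2 at -0.66, and the count is 2 above and 4 below with total counts in place of TMM, since Glrx2 changes side. Of the 3 genes of the endoplasmic reticulum, Gpx8 was called higher and the intervals of Gpx7 and Prdx4 span 0. Of the 5 selenoprotein genes, 4 had ratios below 1 and Gpx4 had one above, and none was past 1.5-fold.

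Among 113 measured further genes of the pathway, taken from 7 lists, 1 was called higher and 6 lower past 2-fold, or 6.19%, beside 7.84% of all measured genes. Their median log2 ratio was 0.00. The lowest values were those of Anpep and Slc7a11, in the list of glutathione import, turnover and cystine supply. Of its 13 measured genes, 6 had ratios above 1 and 7 below. These 2 genes were called lower past 2-fold, or 15.4%, beside 5.77% of all measured genes lower. Slc7a11, the cystine carrier of the cystine-glutamate exchanger and a target of NRF2, had 481 counts (30.4 CPM) in the Ch25h-/- library and 1261 counts (73.7 CPM) in the C57BL/6 library, a log2 ratio of -1.28 (interval -1.43 to -1.13). Its partner Slc3a2, with the highest level per length among the import and turnover genes, had a log2 ratio of -0.57. Anpep, an aminopeptidase that can act on the dipeptide left by glutathione breakdown, had 23.7 CPM in the Ch25h-/- library and 73.1 CPM in the C57BL/6 library (-1.62, interval -1.79 to -1.46). In the same list of 13 measured genes, Chac2, which cleaves glutathione in the cytosol, and Slc25a40, of the mitochondrial glutathione carrier family, were higher past 1.5-fold, at 0.89 and 0.82. Chac2 had 48 counts in the Ch25h-/- library and 28 in the C57BL/6 library, with an interval of 0.19 to 1.62. In either direction, 30.8% of this list was past 1.5-fold, beside 18.6% of all measured genes.

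Of 19 measured further NRF2 targets, Slc7a11 was called lower past 2-fold, and Fth1, Hmox1 and Ephx1 lower past 1.5-fold. These are 5.26% past 2-fold, beside 5.77% of all measured genes lower, and with Slc7a11 counted again 21.1% past 1.5-fold, beside 11.2%. Fth1, the ferritin heavy chain, led these targets per length and had 1232 CPM in the Ch25h-/- library and 2290 CPM in the C57BL/6 library (-0.89). Hmox1, haem oxygenase and also a red pulp macrophage marker, had 73.9 CPM in the Ch25h-/- library and 117.1 CPM in the C57BL/6 library (-0.66). Of the pentose phosphate genes in the same list, G6pdx at 0.17, Pgd at 0.22 and Tkt at 0.19 had intervals above 0, and Taldo1 stood at -0.06 with an interval across it. In all, 8 of the 19 had ratios above 1 and 11 below.

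Of 13 measured partners and regulators of NRF2, Mafk, a small MAF partner, was past 1.5-fold at -0.68 and none was past 2-fold. That is 7.69% lower past 1.5-fold, beside 11.2% of all measured genes. Ratios were below 1 for 10 of the 13 and above 1 for 3, with a median log2 ratio of -0.19. The counting interval lay below no difference for 8 and above it for 3. Sqstm1, the autophagy adaptor that binds KEAP1, led these partners per length and had 369 CPM in the Ch25h-/- library and 510.2 CPM in the C57BL/6 library (-0.47). Cul3, the scaffold of the ligase that marks NRF2, had 213 CPM in the Ch25h-/- library and 149.8 CPM in the C57BL/6 library (0.51, interval 0.43 to 0.58). Bach1, which competes with NRF2 at its elements, stood at -0.37.

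Medians of the other lists lay within 0.17 of 0, over genes on both sides. Median log2 ratios were 0.01 for 13 other glutathione transferases and lactoylglutathione enzymes and 0.01 for 26 other peroxide, thiol and methionine enzymes, and in these lists Gstp3 (-1.13) and the sestrin gene Sesn1 (57.5 CPM in the Ch25h-/- library and 117.7 CPM in the C57BL/6 library, -1.03) were called lower. Of the 13 transferase genes, 30.8% were past 1.5-fold in either direction, beside 18.6% of all measured genes. Per length, Gstt1 (8.30 CPM per kilobase in the Ch25h-/- library and 7.53 in the C57BL/6 library) led the first. In the second, Txndc17 led in the Ch25h-/- library (27.7 CPM per kilobase) and Sesn1 in the C57BL/6 library (29.6). The median was 0.17 for 15 genes of NADPH supply, where Mthfd2l (33 counts in the Ch25h-/- library and 15 in the C57BL/6 library, 1.25) was called higher, 8 intervals lay above 0 and 2 below, and Taldo1, transaldolase, was most abundant per length (56.96 CPM per kilobase in the Ch25h-/- library and 59.3 in the C57BL/6 library). The median was 0.08 for 20 genes of selenoprotein synthesis and other selenoproteins, where Selenom (22 counts in the Ch25h-/- library and 55 in the C57BL/6 library, -1.21) and Dio2 (11 counts in the Ch25h-/- library and 28 in the C57BL/6 library, -1.24) were called lower and Selenow was most abundant per length (92.4 CPM per kilobase in the Ch25h-/- library and 86.5 in the C57BL/6 library).

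**Figure D5:**
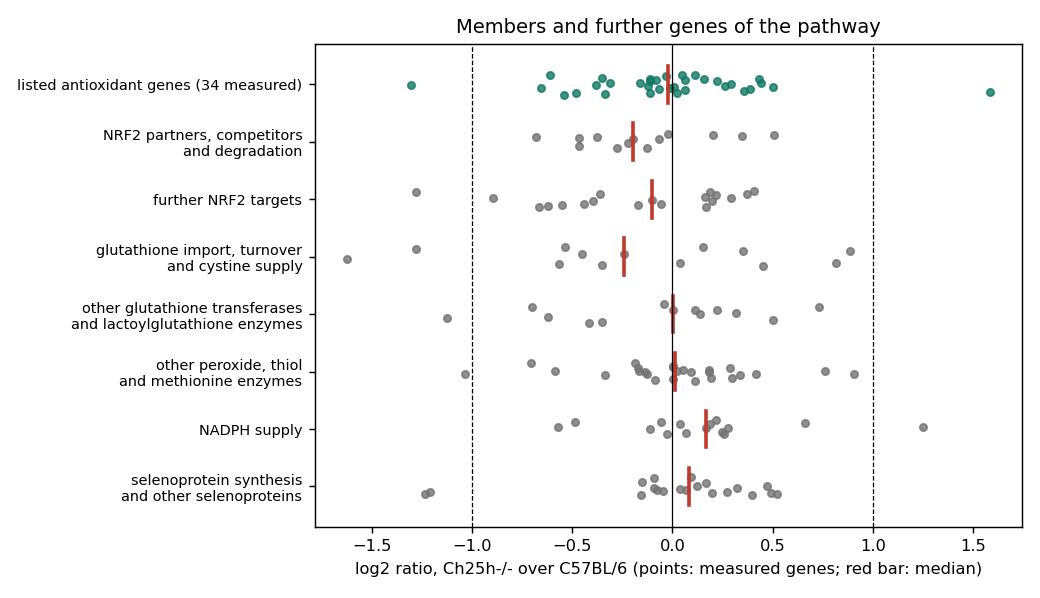
Log2 ratio of Ch25h-/- over C57BL/6 for the 34 measured antioxidant genes in green and for 7 lists of further pathway genes in grey, with red bars at each median and dashed lines at 2-fold. The medians lie between -0.24 for glutathione import, turnover and cystine supply and 0.17 for NADPH supply, and genes lie on both sides of 0 in every list.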

How the data were processed

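Per the labels' protocols, RNA was extracted from sorted cells with TRIzol and libraries were made with the KAPA RNA HyperPrep kit. Build GRCm38, also written mm10, comes from the submitters' processing notes, as do GSNAP, Subread 1.5.2 with featureCounts, FastQC 0.11.9 and edgeR 3.26.8. The authors deposited whole read counts per gene, used here as given. Strand setting, treatment of multiply matching reads and pooling of mice are not given in the sources used here.

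TMM factors (0.991 for Ch25h-/- and 1.01 for C57BL/6) from edgeR 4.0.16 under R 4.3.3 turned them into CPM. No test across genes was run, because each genotype has 1 library. Intervals are Clopper-Pearson for a ratio and conditional for a pair, at 95%, from scipy 1.17.1 in Python 3.11.15, and the error they cover is that of counting alone. The labels name no molecular identifiers, so reads may not be independent molecules. Exon lengths, positions and overlaps come from GENCODE M21, and 50-base words from its transcripts, on both strands. Promoter sequences are from RefSeq.

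The genes, lists, pairs and motifs were chosen with earlier results of these data known. Named genes are those past 1.5-fold, the most abundant per length and the largest ratio of each role, and in further lists those past 2-fold and the most abundant; others are named for context, after their values were seen. The steps were tested on simulated counts. DESeq2 1.42.0 size factors and 7 other settings were tried as alternatives.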

Additional observations from a re-analysis of the deposited data

How the results depend on the processing

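The 8 alternatives kept 1 gene higher and 1 lower past 2-fold and 1 higher past 1.5-fold among the antioxidant genes. Of the 3 genes lower past 1.5-fold, 1 was left when the whole interval had to lie beyond the fold, which can only remove calls. That setting gave 0.56% of all measured genes higher and 2.66% lower past 2-fold, and a filter at 5 CPM gave 1.19% higher and 3.44% lower, against 2.07% and 5.77%. Past 1.5-fold the stricter interval gave 3.07% of all measured genes higher and 6.24% lower. Other scalings shifted the genes' log2 ratios by up to about 0.03 in size, and a prior count of 2 moved Gpx7 most, by -0.0437. Gss and Glrx2 changed sign with total counts, and Sod1 with upper quartile scaling, and the intervals of all 3 span 0. No paired analysis was possible because each genotype has 1 library. Counting precision limits Gpx7, Nqo1 and Prdx4 most, and variation between mice, sorts and library preparations is not measured by these 2 libraries.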
